A study of Canis lupus familiaris with 12 samples.

Results

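MYOT, LRRC39, ASB18, CA3 and MYH13 are 5 genes of striated muscle among the 24223 genes listed for dog left ventricle and mitral valve. They were chosen by symbol, as muscle genes with a large difference between dogs that had DMVD, short for degenerative mitral valve disease, and control dogs in at least 1 of those tissues. The differences between DMVD and control given for them are therefore descriptions, without a test. Each symbol stood on 1 row of each table, and the authors had tested all 5 genes in both tissues.

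In DMVD the leaflets of the valve between left atrium and left ventricle thicken, and blood flows backwards into the atrium. RNA was sequenced from DMVD left ventricle of 2 dogs, a Jack Russell Terrier (5 years old) and a Pomeranian (9 years), and from control left ventricle of 4 dogs, a Beagle (8 years) with Hound mixes (3 years). DMVD mitral valve came from 3 dogs, a Pomeranian (9 years) and Beagles (16 and 17 years), and control mitral valve from 3 dogs, a Beagle (8 years) with Hound mixes (3 years). Breed and age differed between the diagnoses in both tissues, so neither can be told apart from DMVD, and title numbers, breeds and ages mark some dogs as giving both tissues. The labels used here state neither the sex nor the stage of disease nor any drug treatment.

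The tables of the tissues were normalised separately, which limits every level set across them. The deposited values, 1 for each diagnosis and tissue, were read as fragments scaled to gene length and library size (FPKM). That unit was inferred from the layout. No value per dog was available, so the spread between dogs and the depth of each library are unknown, and whether dogs of the diagnoses overlap cannot be shown. Log2 ratios are of DMVD over control unless a tissue ratio is named. The ± values are standard errors (SE) recovered from the test statistic that the authors deposited. A gene is called where the authors' p passed 0.05 after Benjamini-Hochberg adjustment over all genes they tested in that tissue (the adjusted p given below), and "rose" and "fell" are used of called genes alone.

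In striated muscle, sarcomeres run from Z-disc to Z-disc, where actin filaments are anchored, and the myosin filaments are cross-linked at the M-band in the middle. Myotilin, the product of MYOT, binds alpha-actinin and filamin at the Z-disc, and its mutation causes myofibrillar myopathy in humans. LRRC39, also called myomasp, is a leucine-rich repeat protein of the M-band. ASB18 belongs to the ankyrin repeat and SOCS box family, whose members bring substrates to cullin-5 ubiquitin ligases. CA3 is the cytosolic carbonic anhydrase of slow skeletal muscle, and it is also abundant in adipocytes of rodents. MYH13 is the fast myosin heavy chain of extraocular and laryngeal muscle, and lies in a chromosomal cluster of skeletal myosin genes.

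In the mitral valve, MYOT, LRRC39, ASB18 and CA3 all had lower values in DMVD, with ratios between 7.13-fold for CA3 and 11.3-fold for MYOT, whereas MYH13 had a higher value in DMVD. In the left ventricle all 5 had lower values in DMVD, from a log2 ratio of -0.07 for LRRC39 to -5.92 for MYH13, and CA3 was listed at 0. The median log2 ratio of the members was -3.07 in the valve, against 0.05 over all tested genes, and -1.17 in the ventricle for the 4 members with a ratio, against -0.04. In the valve 4 of the 5 were called lower, where 0.108% of all tested genes were. In the ventricle 3 of the 5 were called lower, ASB18, CA3 and MYH13, where 1.16% of all tested genes were, and MYH13 alone was at a threshold of 0.01. No member was called higher, against 0.311% of tested genes in the valve and 1.92% in the ventricle. These contrasts chose the members, so nothing is read from those counts. The same holds for the members' ranks and their places among genes of related lists given below.

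**Figure D1:**
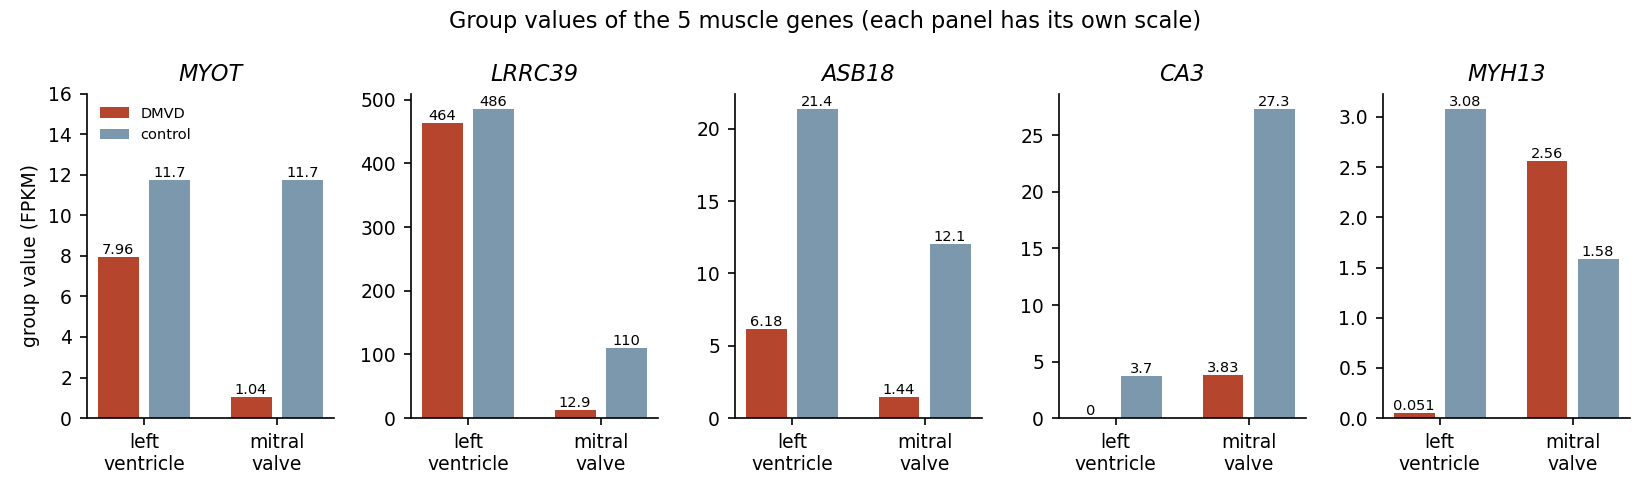
Group value (FPKM, linear axis from 0, a separate scale in each panel) of the 5 genes in DMVD (red) and control (blue) left ventricle and mitral valve. Each bar is 1 deposited group value, without replicate error. MYOT, LRRC39, ASB18 and CA3 are low in the DMVD valve, and MYH13 is low in the DMVD ventricle (0.051 FPKM, against 3.08 FPKM in control ventricle).

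The labelled tissues were checked against marker genes. Of 20 cardiomyocyte markers listed 15 had a matching name, and all 15 were tested in the valve. Their summed value was 12734 FPKM in DMVD valve and 25864 FPKM in control valve, so both valve groups held abundant heart muscle RNA. Their log2 ratio was below 0 for 14 of the 15, with a median of -0.96, but only MYL3, the ventricular essential light chain, was called (-5.19 ± 0.68, adjusted p of 2.64e-10). In the ventricle 13 were tested, none was called, the median was -0.32, and the sums were 31352 FPKM in DMVD and 35813 FPKM in control. The errors of the most abundant markers were large in the valve, such as ± 2.52 for TNNT2, cardiac troponin T. Among atrial markers the natriuretic peptide gene NPPA had 2878 FPKM in DMVD valve and 2984 FPKM in control valve, and the light chain MYL4 had 1631 FPKM in DMVD valve and 1792 FPKM in control valve. Of 7 atrial markers tested in the valve 0 were called, with a median of 0.19. In the ventricle 1 of 5 rose, NPPA. In such bulk tissue, fewer muscle cells and less RNA per muscle cell cannot be told apart. The part of the muscle content in the members' values, by amount or by share of atrial and ventricular muscle, was not tested.

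MYOT (ENSCAFG00000001140, chromosome 11, 25577010 to 25594253, CanFam3.1) had 1.04 FPKM in DMVD valve and 11.7 FPKM in control valve. In the ventricle it had 7.96 FPKM in DMVD and 11.7 FPKM in control. The control tissues thus stood at almost the same level, and the DMVD valve alone was near 1 FPKM. The log2 ratio was -3.49 ± 0.67 in the valve, at rank 39 from the lowest of 14477 genes with a ratio, and -0.56 ± 0.43 in the ventricle. Taken relative to the median of the cardiomyocyte markers, the valve ratio of MYOT was -2.53.

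Other Z-disc genes gave smaller ratios in the valve. Of 20 tested there, 0 were called in either direction and the median was -0.50. The lowest was FHL2, a LIM-domain protein that binds titin, at -1.33 ± 0.50 (125 FPKM in DMVD and 315 FPKM in control), so no other Z-disc gene had as low a ratio as MYOT. The most abundant by the mean of both groups, ANKRD1, a stress-responsive titin-binding repeat protein, had 912 FPKM in DMVD valve and 1880 FPKM in control valve. In the ventricle 1 of 21 Z-disc genes fell, the synaptopodin-like gene SYNPO2L (-2.02 ± 0.45, adjusted p of 0.000592, 20.5 FPKM in DMVD and 83.5 FPKM in control), and 7 of the 21 had a lower ratio than MYOT.

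LRRC39 (ENSCAFG00000020018, chromosome 6, 49818903 to 49838941) was the most abundant of the 5. It had 464 FPKM in DMVD ventricle and 486 FPKM in control ventricle, above 98.2% and 98.6% of the tested genes. The valve held much less, with 12.9 FPKM in DMVD and 110 FPKM in control. The log2 ratio was -3.09 ± 0.67 in the valve and -0.07 ± 0.64 in the ventricle, less than its SE. Relative to the cardiomyocyte markers the valve ratio was -2.13.

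Among M-band genes and their relatives LRRC39 also had the lowest valve ratio. None of 14 tested was called there, with a median of -0.98 and values below 0 for 13. The muscle enolase ENO3 came next, at -1.85 ± 0.52 (78.3 FPKM in DMVD and 282 FPKM in control, adjusted p of 0.0640), followed by the muscle creatine kinase CKM at -1.52 ± 1.25. In the ventricle 1 of 13 fell, another leucine-rich repeat gene of heart muscle, LRRC10 (-1.48 ± 0.43, adjusted p of 0.0235), which had 88.5 FPKM in DMVD and 248 FPKM in control. LRRC39 lay above 8 of those 13 in the ventricle.

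ASB18 (ENSCAFG00000012159, chromosome 25, 47026100 to 47087242) had a lower DMVD value in both tissues. It had 1.44 FPKM in DMVD valve and 12.1 FPKM in control valve. In the ventricle it had 6.18 FPKM in DMVD and 21.4 FPKM in control. The log2 ratio was -3.07 ± 0.66 in the valve and -1.79 ± 0.54 in the ventricle, and relative to the cardiomyocyte markers -2.11 and -1.47.

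The other ASB genes had smaller ratios. None of 16 was called in either tissue, with medians of -0.74 in the valve and -0.64 in the ventricle, and no other ASB gene had as low a ratio as ASB18 in either. The lowest were ASB14 in the valve (-1.28 ± 0.89) and ASB13 in the ventricle (-1.58 ± 0.50, adjusted p of 0.0519). ASB13 was called lower in the ventricle when the adjustment was limited to genes averaging 1 FPKM or more. ASB11, the most abundant of the family in the ventricle, had 65.7 FPKM in DMVD ventricle and 66.3 FPKM in control ventricle. ASB2, which targets filamins, had 28.1 FPKM in DMVD valve and 39.9 FPKM in control valve. Of 4 genes of the cullin-5 ligase core 0 were called in either tissue, with medians of -0.31 in the valve and 0.24 in the ventricle. The adaptor subunit TCEB2, elongin B, had 262 FPKM in DMVD valve and 307 FPKM in control valve.

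**Figure D2:**
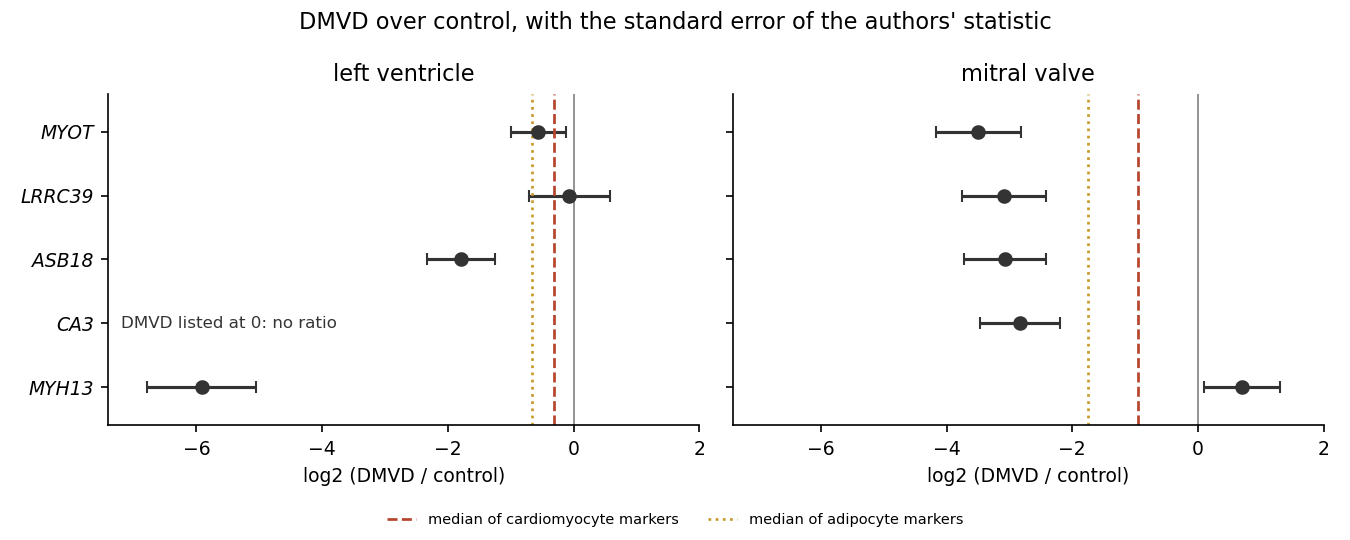
Log2 ratio of DMVD over control for each of the 5 genes (points) in left ventricle and mitral valve, with bars of 1 SE from the authors' statistic. Dashed and dotted lines mark the medians of the cardiomyocyte and adipocyte markers. In the valve MYOT, LRRC39, ASB18 and CA3 lie between -2.83 and -3.49, below both medians, while MYH13 lies at 0.69, and in the ventricle CA3 has no ratio.

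CA3 (ENSCAFG00000025237, chromosome 29, 31935192 to 31945585) had more transcript in control valve than in control ventricle. It had 3.83 FPKM in DMVD valve and 27.3 FPKM in control valve. In the ventricle it was listed at 0 in DMVD and had 3.70 FPKM in control. The log2 ratio in the valve was -2.83 ± 0.64, or -1.88 relative to the cardiomyocyte markers. No ratio is given for the ventricle, where 219 tested genes were listed at 0 in DMVD.

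The other carbonic anhydrases had valve ratios between -1.36 and 1.42. None of 8 tested in the valve was called, and the median was 0.06. In the ventricle 1 of 8 rose, CA4, a membrane-bound enzyme of capillary endothelium (2.46 ± 0.43, adjusted p of 2.92e-06, 73.7 FPKM in DMVD and 13.4 FPKM in control), and the median was -0.11. CA14, another membrane-bound form, was the most abundant in the valve, with 47.2 FPKM in DMVD and 54.4 FPKM in control. CA2 and CA1 are the nearest listed genes on either side of CA3. CA2, which lies 13537 bases away, had 1.14 FPKM in DMVD valve and 0.913 FPKM in control valve. CA1, the form of red cells, had at most 0.081 FPKM in any group.

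Adipocyte markers were set beside CA3. In the ventricle 3 of 10 fell, PLIN1, the coat protein of lipid droplets (-4.48 ± 0.79, adjusted p of 4.49e-06), CIDEC, which fuses droplets (-2.86 ± 0.80), and the glycerol-3-phosphate dehydrogenase GPD1 (-2.18 ± 0.44). RETN, the resistin gene, rose there by 2.56 ± 0.75, and the ventricle median was -0.66. In the valve 0 of 10 were called, 9 had lower values in DMVD and the median was -1.75. PLIN1 had 0.245 FPKM in DMVD ventricle and 5.44 FPKM in control ventricle. In the valve it had 5.64 FPKM in DMVD and 24.8 FPKM in control, the same order of groups as CA3. Of the 10 markers 2 shared that order, PLIN1 and CIDEC. The order of CA3 rests on near values, 3.70 FPKM in control ventricle and 3.83 FPKM in DMVD valve. CIDEA missed it by as little, with 3.32 FPKM in control ventricle and 3.29 FPKM in DMVD valve. The summed value of the 10 markers ran from 189 to 261 FPKM over the 4 groups, and none of them was at 0. A large part of each sum was PNPLA2, so the sum says little of the other markers. PNPLA2 had 123 FPKM in DMVD valve and 124 FPKM in control valve, and 146 FPKM in DMVD ventricle and 102 FPKM in control ventricle. The adipokine gene ADIPOQ had no matching name and was not analysed here. The part of adipocyte content in the CA3 values was not tested.

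MYH13 (ENSCAFG00000017460, chromosome 5, 34617979 to 34669349) differed from the other members in its direction in the valve. In the ventricle it had 0.051 FPKM in DMVD and 3.08 FPKM in control. In the valve it had 2.56 FPKM in DMVD and 1.58 FPKM in control. The log2 ratio was -5.92 ± 0.86 in the ventricle, a 60.4-fold difference that rests on a DMVD value near 0. With 1 FPKM added to both groups the ventricle ratio was -1.96. The valve ratio was 0.69 ± 0.60, about the size of its SE.

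The neighbouring myosins of the chromosome 5 cluster also had lower values in the DMVD ventricle, but MYH1 alone was called. MYH1, the fast IIx heavy chain, fell by 2.05 ± 0.53 on the log2 scale (adjusted p of 0.00702), with 1.04 FPKM in DMVD and 4.28 FPKM in control. MYH8, the perinatal chain and the next gene after MYH13, had 1.08 FPKM in DMVD ventricle and 2.61 FPKM in control ventricle (-1.28 ± 0.48, adjusted p of 0.144). The embryonic chain MYH3 had 0.335 FPKM in DMVD ventricle and 0.868 FPKM in control ventricle (-1.37 ± 0.57, adjusted p of 0.236). MYH4, the IIb chain, was not tested by the authors and reached 0.323 FPKM at most, in control ventricle.

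In the valve MYH8, MYH1, MYH3 and MYH4 had lower DMVD values, opposite to MYH13, but MYH3 and MYH4 were not tested there. Of 10 other sarcomeric myosins listed 7 had a matching name. MYH8 had 0.265 FPKM in DMVD valve and 1.35 FPKM in control valve (-2.35 ± 0.74, adjusted p of 0.183), and MYH1 had 1.11 FPKM in DMVD and 2.03 FPKM in control. All 4 other sarcomeric myosins tested there had lower DMVD values and none was called, with a median of -1.44. In the ventricle 1 of 4 was called, MYH1, and the median was -1.51. MYH7B, the most abundant of those 4 in the ventricle, had 28.6 FPKM in DMVD and 89.6 FPKM in control (-1.65 ± 0.59, adjusted p of 0.118). Reads of these closely related genes may have been shared between them, and how the authors handled such reads is unknown. MYH7, the main ventricular chain, was listed at 0 in control ventricle under a status other than tested that 24 ventricle genes carried, all at 0 in control, and has no ratio there.

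**Figure D3:**
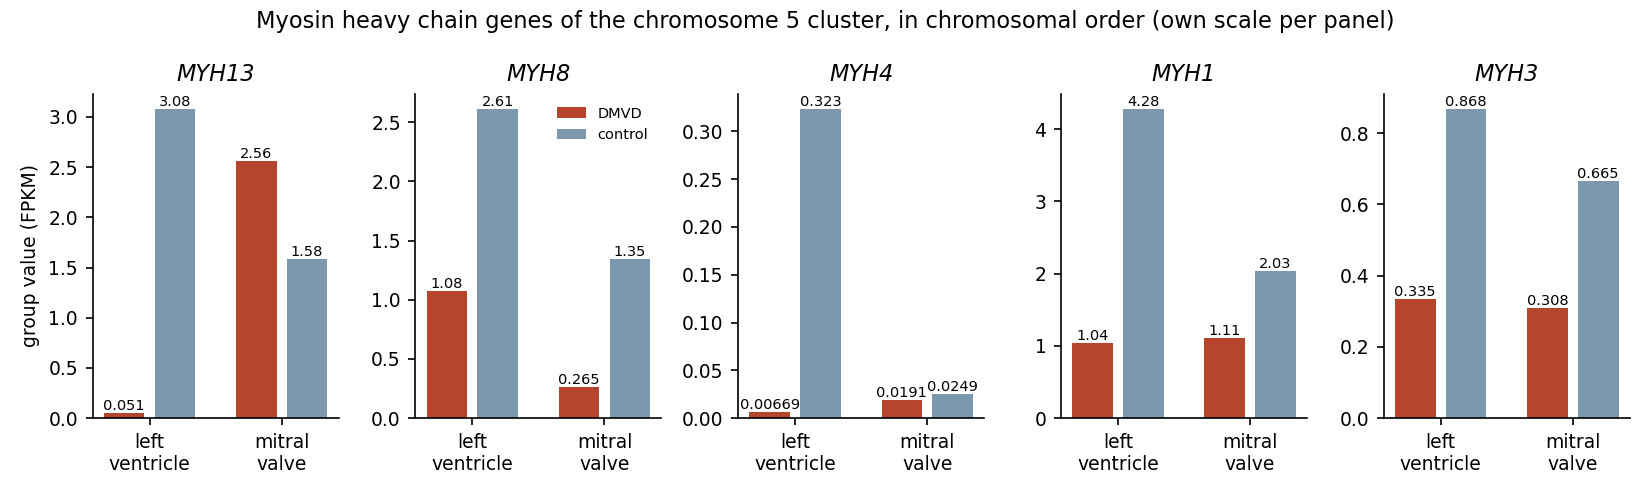
Group value (FPKM, linear axis from 0, a separate scale in each panel) of 5 skeletal-type myosin heavy chain genes of chromosome 5 in DMVD (red) and control (blue) tissue. Each bar is 1 deposited group value without replicate error. All 5 have lower values in DMVD ventricle than in control ventricle, and MYH13 alone has a higher value in DMVD valve (2.56 FPKM) than in control valve (1.58 FPKM).

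Skeletal muscle genes outside the cluster were mixed in the ventricle. Of 6 tested there 1 rose, MYL1, the fast skeletal essential light chain (3.53 ± 0.80, adjusted p of 0.000973), with 12.6 FPKM in DMVD and 1.10 FPKM in control. None fell, and the median was -0.10. Of 10 tested in the valve 0 were called, with a median of -0.06. The myogenic factors MYOG, MYF5 and PAX7 were listed at 0 in all 4 groups, while MYOD1 reached 0.107 FPKM and MYF6 0.0231 FPKM, both in DMVD valve. ACTA1, the skeletal actin gene, had 1627 FPKM in DMVD valve and 2763 FPKM in control valve. The slow myosin-binding protein gene MYBPC1 had 79.8 FPKM in DMVD valve and 92.4 FPKM in control valve, against 0.0123 FPKM in DMVD ventricle and 0.0434 FPKM in control ventricle.

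**Figure D4:**
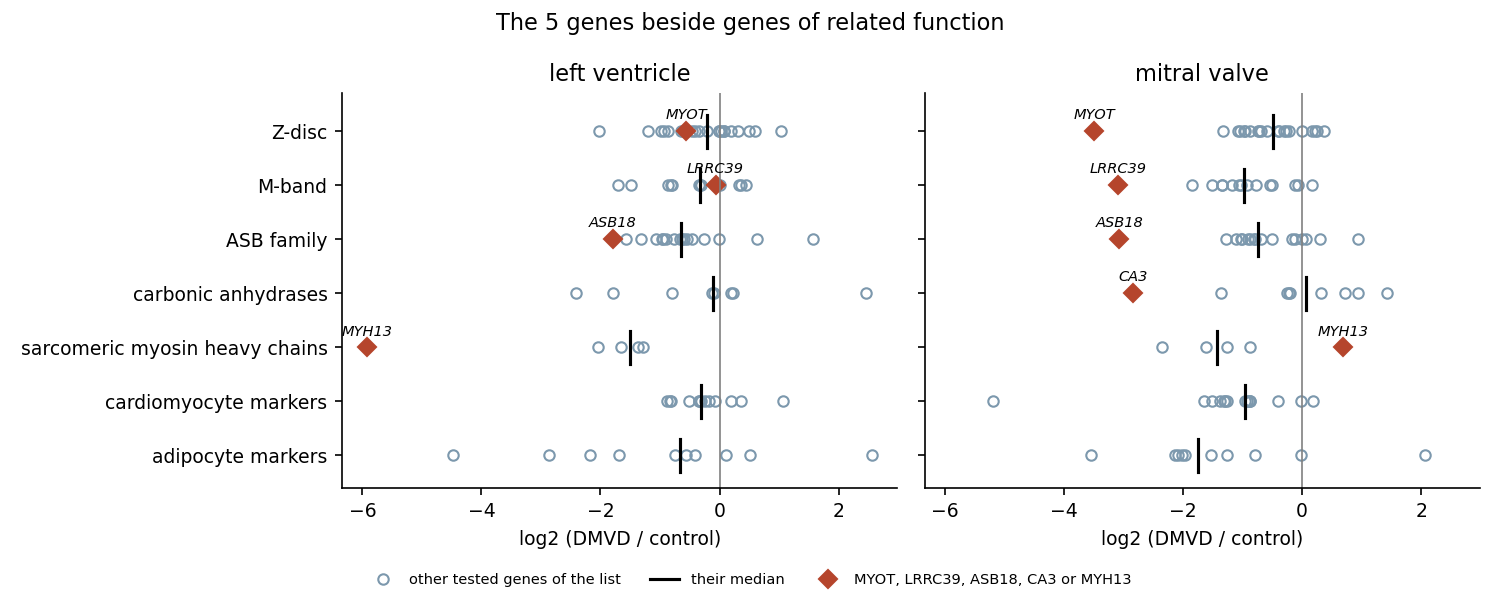
Log2 ratio of DMVD over control for tested genes of 7 functional lists (open circles), the median of each list (black bars) and the member that belongs to it (red diamonds), in left ventricle and mitral valve. In the valve MYOT, LRRC39, ASB18 and CA3 lie below every other gene of their own list. In the ventricle ASB18 and MYH13 do, and CA3 has no ratio. The members were chosen for large ratios, so these places are a description only.

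Set side by side across tissues, the members stood in different orders. The median log2 ratio of valve over ventricle was 0.31 in control dogs over 11489 genes above 1 FPKM in both. Relative to that median, control valve over control ventricle was 2.57 for CA3, -0.31 for MYOT, -1.14 for ASB18, -1.28 for MYH13 and -2.46 for LRRC39. In DMVD dogs, relative to a median of 0.34, it was -2.44 for ASB18, -3.27 for MYOT and -5.50 for LRRC39. For MYH13 it was 5.31, which rests on the value of 0.051 FPKM in DMVD ventricle and is the least certain, and CA3 has none. By level, LRRC39 led in every group. The spread between neighbours in these orders cannot be judged without values per dog.

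The nearest listed genes were read beside the members. No locus in the tables overlaps a member. TRMT13, a tRNA methyltransferase gene 228 bases from LRRC39, had 5.00 FPKM in DMVD valve and 7.66 FPKM in control valve, a log2 ratio of -0.62 ± 0.65. DBT, on the other side and part of branched-chain amino acid breakdown, had 3.16 FPKM in DMVD valve and 4.18 FPKM in control valve. PKD2L2, which starts 16 bases beyond MYOT, had no more than 0.139 FPKM in any group. IQCA1, beyond ASB18, reached 0.0432 FPKM at most. Both neighbours of LRRC39 had lower values in DMVD valve, with smaller ratios than LRRC39 (-0.40 ± 0.61 for DBT). LRRC39 was chosen for a large ratio, so nothing about its locus is read from that gap. Whether a whole locus was low was not tested.

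The genes most like each member were searched among 9332 named genes, as those with the smallest Euclidean distance over the 4 group values on the log2(FPKM + 1) scale, each gene centred on its own mean. This is a description over 4 values. CA3 was nearest to PLIN1 (distance 0.49) and CIDEC (1.04), followed by PPP1R1B, TUSC5 and S100B. MYOT was nearest to HAND1, a transcription factor of the developing heart (0.63), followed by SMYD2, SNORD38, RXRG and KCNJ4. LRRC39 was nearest to LEAP2 (0.67), AQP7, GPR22, GPR162 and MYL3. ASB18 was nearest to GPD1 (0.68), GPT, SLC12A7, MOGAT1 and MYH7B. MYH13 was nearest to P2RY1 (0.47), ADA, CCRL1, NGFR and FZD8. Between members the smallest distance was that of MYOT and ASB18 (0.82) and the largest that of LRRC39 and CA3 (6.23). With 0.1 FPKM added in place of 1, no more than 2 of the 5 nearest genes were shared for any member, so these names depend on that choice.

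Markers of other cell types were read beside these values. Of 8 fibroblast and valve interstitial markers in the valve 0 were called, all 8 had higher DMVD values and the sums were 3150 FPKM in DMVD and 2395 FPKM in control. In the ventricle 1 of 8 rose, POSTN. Of 8 smooth muscle markers 7 had higher DMVD values in the valve and 1 of them rose, ACTG2, with a median of 0.86, and in the ventricle 0 of 8 were called. All 9 endothelial markers had higher DMVD values in both tissues, and 1 rose in the valve, EMCN, and 3 in the ventricle, SOX17, ROBO4 and VWF. All macrophage markers tested had higher DMVD values, 8 in the valve with a median of 1.54 and 7 in the ventricle with a median of 1.36, but C1QB alone rose, in both tissues. All red cell genes tested also had higher DMVD values, and 1 of 4 rose in the valve and 4 of 5 in the ventricle, where HBA, an alpha-globin gene, had 3559 FPKM in DMVD and 61.3 FPKM in control. Their part in the members' values was not tested.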

How the data were processed

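RNA was sequenced from 12 libraries in 4 groups by tissue and diagnosis, taken from the labels. The submitters' processing notes name cutadapt, Bowtie, TopHat and CanFam3.1 without versions; which program made the gene values is not stated there. The authors deposited 1 table per tissue with 1 value per group, read as FPKM from a layout like a Cuffdiff gene table, per the file headers. In the authors' tables the log2 fold change runs from DMVD to control, and the deposited test statistic, a score, has the opposite sign. The authors' deposited p-value is unadjusted.

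Log2 ratios of DMVD over control were recomputed from the FPKM values. Where a tested gene was above 0 in DMVD and control, its p-value matched a normal p of the statistic (largest gap 2.84e-06), so ratio over statistic gave the SE, a model error of the authors. The p-values were adjusted by Benjamini-Hochberg over 13788 ventricle and 14810 valve genes, a step tested on simulated data. A total of 425 and 62 genes passed 0.05, and 1552 and 622 had an unadjusted p under 0.05.

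The members and the 16 gene lists were chosen with earlier results of these data known. Of 233 list genes 196 matched, 16 of them through UniProt entry names, and 7 stand on more than 1 list. Members were left out of the lists. Named genes were the members, called list genes or, where none passed, up to 3 of the highest mean level, nearest listed genes, the 5 genes most like each member, and any myosin, carbonic anhydrase or ASB gene. List genes named for the lowest ratio, TNNT2 and the myogenic factors were chosen after their values were seen. Positions are on CanFam3.1, counted from 1. The tools were scipy 1.17.1, pandas 2.3.3, matplotlib 3.10.9 and numpy 2.4.6 under Python 3.11.15.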

Additional observations from a re-analysis of the deposited data

How the results depend on the processing

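No paired analysis was possible because the tables hold 1 value per group, and for the same reason no replicate could be left out. Each ratio of a member kept its direction under added FPKM and centring on all tested genes, and CA3 in the ventricle, at 0 in DMVD, was not run. LRRC39 in the ventricle, within its SE of 0, had 0.25 relative to the cardiomyocyte markers. After adding 1 FPKM to each group, the log2 ratio of MYOT in the valve was -2.64 and that of MYH13 in the ventricle -1.96, and with 0.1 FPKM MYH13 there had -4.40. Relative to the cardiomyocyte markers the valve ratios were -2.53 for MYOT, -2.13 for LRRC39, -2.11 for ASB18, -1.88 for CA3 and 1.65 for MYH13. Each of these moved by more than the gene's SE from the ratio as deposited. The error of the marker median was not included. At a threshold of 0.01, 259 genes were called in the ventricle and 30 in the valve. Of the members, counted so after seeing the data, 1 was then called in the ventricle, MYH13, without ASB18 and CA3, and 4 in the valve. Ventricle lists then had 0 calls for M-band, atrial, muscle transcription factor, fibroblast and macrophage genes and 2 for adipocyte genes, and valve lists had 0 for smooth muscle and macrophage genes. Adjusting over genes averaging 1 FPKM or more gave 1 call for the ASB family in the ventricle, and 1 for adipocyte and 2 for macrophage markers in the valve. With log2(FPKM + 0.1), the nearest genes shared with the main choice were 1 of 5 for MYOT, 0 for ASB18 and 2 each for LRRC39, CA3 and MYH13. Depth is unknown, and values near 0, such as MYH13 in the DMVD ventricle, are the least certain.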

Other observations

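Transcription factors of heart and skeletal muscle were measured as well. Of 22 tested in the ventricle 1 rose, TEAD4, a factor that binds muscle promoters (1.93 ± 0.53, adjusted p of 0.0134), with 8.98 FPKM in DMVD and 2.35 FPKM in control, and the median was -0.29. Of 25 tested in the valve 0 were called, with a median of -0.15. The ventricular factor IRX4 had 0.0135 FPKM in DMVD valve and 1.86 FPKM in control valve (-7.11 ± 2.74, adjusted p of 0.552), and HAND1 had 2.43 FPKM in DMVD valve and 10.8 FPKM in control valve (-2.16 ± 0.65, adjusted p of 0.131). Both were named after their values were seen.

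Of the 14810 genes tested in the valve 16 were called lower in DMVD, and MYOT, LRRC39, ASB18 and CA3 are 4 of them. Others, also named after their values were seen, included MYL3, GPR162, DPP6, PLA2G7, TDRD1 and Q8WN71_CANFA, a UniProt entry name not matched to a symbol here. Q8WN71_CANFA had 15.9 FPKM in DMVD valve and 1943 FPKM in control valve (-6.93 ± 0.97, adjusted p of 5.87e-09). In the ventricle it had 3754 FPKM in DMVD and 6223 FPKM in control. GPR162 had 0.755 FPKM in DMVD valve and 8.97 FPKM in control valve, and 12.2 FPKM in DMVD ventricle and 37.6 FPKM in control ventricle.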
